A study of Mus musculus with 3 samples.

Results

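The 8 genes described here encode components of complement, its receptor for C3a and an inhibitor: C3, Cfb, Cfp, C1qa, C1qb, C1qc, C3ar1 and Serping1. They were chosen by gene symbol from the 55536 genes of the annotation, with earlier results of these data known. All 8 were found in the gene table and in both transcript tables. RNA of the chromatin fraction was sequenced after ribosomal RNA depletion in bone-marrow-derived macrophages (BMDM) of C57BL/6J mice, cells grown in culture from bone marrow. They were exposed to 100 ng/ml lipid A during 12 h, then kept 12 h after washout, then given 100 ng/ml lipid A once more during 90 min. Lipid A, the membrane anchor of bacterial lipopolysaccharide, is a ligand of Toll-like receptor 4. All 3 libraries belong to this 1 condition, with no untreated cells, so each gene has a level and a spread between libraries but no response to lipid A. In the labels they are biological replicates 1, 2 and 3, made from 1 µg, 250 ng and 500 ng of RNA. All 3 carry the same donor entry, and nothing in the labels tells whether cultures or animals were separate, so p-values and SDs measure only the spread between these samples, which may be technical.

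Complement is a set of plasma and cell-surface proteins that tag microbes and dying cells, call in leukocytes and open pores in membranes. C1q starts the classical pathway, mannose-binding lectins and ficolins start the lectin pathway, and all routes meet at C3, whose cleavage leaves C3b on the target and releases the small fragment C3a. Most plasma complement comes from the liver, whereas macrophages are a known source of C1q, properdin and C3. RNA on chromatin includes transcripts still being made and transcripts not yet exported, so a level here is not that of cytoplasmic mRNA or of protein.

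Depth was 12502177, 21683473 and 16844974 expected counts on annotated genes in replicates 1, 2 and 3. Macrophage markers were present, with 8 of 8 at 1 TPM or more in each library (TPM being transcript abundance corrected for length and scaled to the same total in every library) and summed levels of 944, 1101 and 978 TPM. Of 40 markers of other cell types, 4 reached 1 TPM in each library and 12 had no count in any, with sums of 59.96, 28.49 and 38.99 TPM in replicates 1, 2 and 3. Most of that was the endothelial list, at 50.1, 19.3 and 30.6 TPM, led by Vwf at 25.5 ± 10.4 TPM (SD, n = 3). Only 2 of the 5 endothelial markers reached 1 TPM in each library, so that sum does not stand for the whole list. Hepatocyte markers summed to 0.11, 0.06 and 0 TPM. A change in the number of cells of a type and a change in RNA per cell cannot be told apart in such bulk libraries.

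Of the component genes, 7 were abundant and Serping1 was close to the limit of counting. At 1 TPM or more in each library, 7 of the 8 genes were present, against 41.1% of 22015 protein-coding genes, mitochondrially encoded genes apart. The same 7 of 8 passed 10 TPM in each library, against 19.1% of protein-coding genes. In the other transcript table, which was made from the reads directly, 7 of 8 passed 1 TPM in each library, against 52.1% of protein-coding genes. As the genes were chosen with earlier results known, these counts describe the 8 genes and are no test against those shares. Members' TPM summed to 594.74, 508.66 and 643.22 in replicates 1, 2 and 3, and C3 alone made up 44.7%, 28.8% and 48.0% of those sums.

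**Figure D1:**
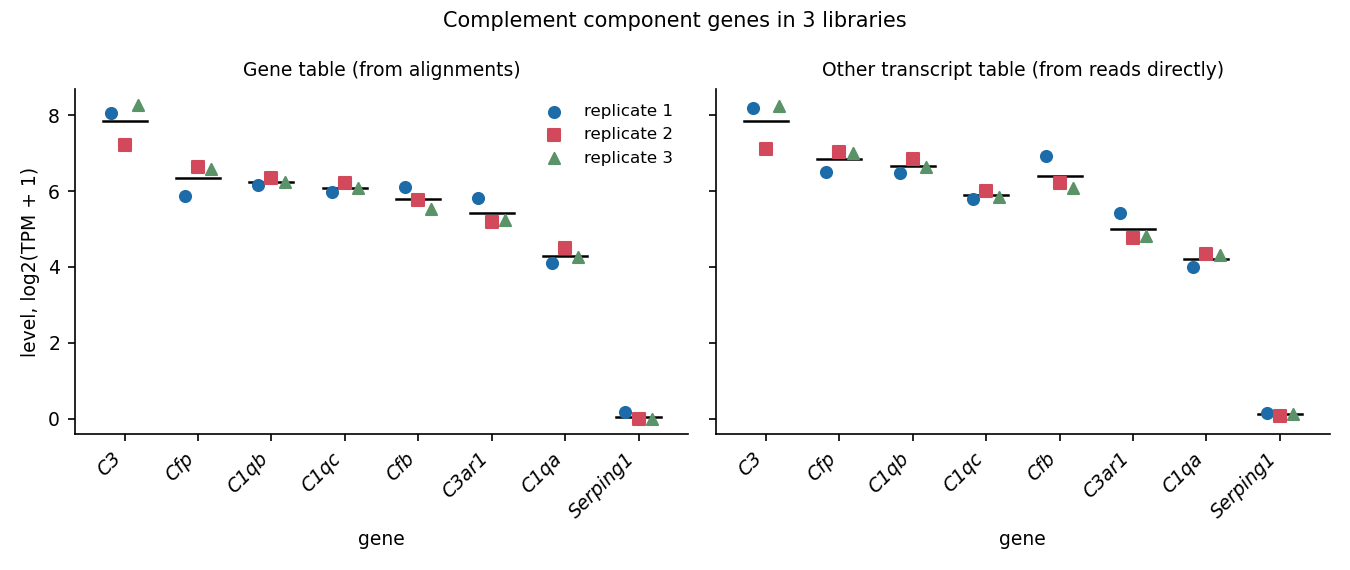
Levels of the 8 genes in each library as log2(TPM + 1), in the gene table made from alignments (left) and in the other transcript table made from the reads directly (right); points are libraries and bars are means over 3 libraries. C3 is highest and Serping1 lowest in every library of both panels, and the mean of Cfb lies above that of C1qc in the right panel only.

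C3, the protein on which all activation routes meet, had the highest level of the 8 in every library. Its gene (ENSMUSG00000024164.15) lies on the minus strand at chr17:57203970-57228136 of mm10. C3 was at 265.73, 146.54 and 308.84 TPM in replicates 1, 2 and 3, or 240 ± 84.1 TPM (SD, n = 3), from 11655, 10781 and 16275 expected counts. Replicate 2, the deepest library and the one with the least starting RNA, was the lowest, and the highest and lowest libraries differed by 2.11 times. Between 98.6% and 99.5% of protein-coding genes had a lower TPM in the same library. The other transcript table gave 291.66, 137.2 and 302.52 TPM, with replicate 2 again lowest. Scaled to protein-coding genes alone, replicate 2 was still lowest, at 536 TPM against 779 and 1052 TPM in replicates 1 and 3. The endothelial marker sum was also lowest in replicate 2; the part of depth, starting RNA or other cells in the spread of C3 was not tested.

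Cfp and Cfb encode the other proteins of the alternative pathway that were detected. Cfp is properdin, which stabilises the C3-cleaving enzyme on a surface, and Cfb is factor B, whose protease fragment is the active part of that enzyme. Cfp (ENSMUSG00000001128.7, chrX:20925454-20931555, minus strand) was at 56.96, 97.39 and 94.02 TPM, or 82.8 ± 22.4 TPM (SD, n = 3), from 679, 2147 and 1555 expected counts. Replicate 1 stood below the other libraries, which lay close together. Cfb (ENSMUSG00000090231.10, chr17:34856374-34862518, minus strand) was at 68.14, 53.68 and 44.88 TPM, or 55.6 ± 11.7 TPM (SD, n = 3), from 1445, 2176 and 1369 expected counts. Replicate 1 was thus the lowest library for Cfp and the highest for Cfb. Among the 7 detected genes, the level of Cfb depended most on the table: the other transcript table gave 86.8 ± 30.1 TPM (SD, n = 3), 1.56 times the gene table's mean.

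The genes of the 3 chains of C1q lie side by side on chromosome 4 in the order C1qb, C1qc, C1qa, on the minus strand, with 3616 bases between C1qb and C1qc and 2851 bases between C1qc and C1qa. C1q, the recognition molecule of the classical pathway, is built from equal numbers of the A, B and C chains. C1qb (ENSMUSG00000036905.8, chr4:136880129-136886187) was at 70.84, 80.55 and 74.15 TPM, or 75.2 ± 4.94 TPM (SD, n = 3), from 679, 1307 and 935 expected counts. C1qc (ENSMUSG00000036896.5, chr4:136889804-136893065) was at 61.33, 73.36 and 66.21 TPM, or 67.0 ± 6.05 TPM (SD, n = 3), from 573, 1175 and 827 expected counts. C1qa (ENSMUSG00000036887.5, chr4:136895917-136898803) was at 16.22, 21.72 and 18.17 TPM, or 18.7 ± 2.79 TPM (SD, n = 3), from 147, 332 and 216 expected counts. All 3 genes had their lowest level in replicate 1 and their highest in replicate 2, and no library of C1qa reached a level of C1qb or C1qc.

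The RNA of the 3 C1q chains was thus unequal on chromatin. C1qb was 4.37, 3.71 and 4.08 times as high as C1qa in replicates 1, 2 and 3, and C1qc was 3.78, 3.38 and 3.64 times as high as C1qa. C1qa made up 10.9%, 12.4% and 11.5% of the summed C1q TPM of 148.39, 175.63 and 158.53, and 9.50%, 9.90% and 10.8% in the other transcript table. C1qa and C1qb each have a single annotated transcript, of 1040 and 1088 bases, so neither level depends on how reads were shared among isoforms.

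C3ar1 encodes the receptor for C3a, a G protein-coupled receptor of myeloid cells. The gene (ENSMUSG00000040552.8, chr6:122847138-122856161, minus strand) was at 55.4, 35.42 and 36.95 TPM, or 42.6 ± 11.1 TPM (SD, n = 3), from 2466, 2812 and 2254 expected counts. Replicate 1 was the highest, as for Cfb and for the endothelial marker sum; the part of other cells in that was not tested. The other transcript table gave 31.6 ± 8.60 TPM (SD, n = 3) with replicate 1 again highest.

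Serping1 encodes C1 inhibitor, which blocks the C1 proteases and the proteases of the lectin pathway. The gene (ENSMUSG00000023224.12, chr2:84765387-84775444, minus strand) had 2 expected counts in replicate 1, or 0.12 TPM, and none in replicates 2 and 3. Where no count was seen, 3 remain possible from counting error alone, and at this gene's length 3 counts equal 0.177, 0.129 and 0.167 TPM in replicates 1, 2 and 3. The other transcript table gave 0.111, 0.043 and 0.083 TPM. Serping1 RNA was therefore at or below what these depths can show, and no fold is given against it.

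By mean TPM the order was C3, Cfp, C1qb, C1qc, Cfb, C3ar1, C1qa and Serping1. Ranks 1, 4, 6, 7 and 8 were held by the same genes in all 3 libraries, and Cfp, C1qb and Cfb changed places. Differences were taken within each library on the log2(TPM + 1) scale for 12 pairs, the neighbours in the order and pairs chosen by role, and tested by two-sided exact permutation of their signs. The smallest exact p that 3 libraries allow is 0.25, or 0.3 after Benjamini-Hochberg adjustment over the 12 pairs, so no difference could pass 0.05 in this test. For 10 pairs the sign was the same in all 3 libraries, which gives that smallest p. For C1qa against Serping1, one of the 10, only the direction is given.

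C3 exceeded Cfp, the next gene, by 2.20, 0.58 and 1.71, a mean of 1.50 ± 0.83 (SD, n = 3 libraries), with the smallest difference in replicate 2. It exceeded Cfb by 2.05 ± 0.67 and its receptor gene C3ar1 by 2.43 ± 0.53 (SD, n = 3 each). Cfb exceeded C3ar1 by 0.38 ± 0.17 and C3ar1 exceeded C1qa by 1.13 ± 0.53 (SD, n = 3 each). Among the C1q chains, C1qb exceeded C1qc by 0.17 ± 0.036, and C1qb and C1qc exceeded C1qa by 1.96 ± 0.11 and 1.79 ± 0.07 (SD, n = 3 each).

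The size of some differences depended on the table or on the transcripts summed. C1qb minus C1qc was 0.77 ± 0.092 in the other transcript table and 1.15 ± 0.12 on transcripts annotated as protein-coding (SD, n = 3 each), so the near-equal levels of C1qb and C1qc hold for whole genes in the gene table. C1qc minus C1qa was 0.81 ± 0.071 on transcripts annotated as protein-coding, and Cfb minus C3ar1 was 1.41 ± 0.13 in the other transcript table (SD, n = 3 each). There C3 minus Cfp fell to 1.00 ± 0.82 and C3 minus Cfb to 1.45 ± 0.65, whereas C3 minus C3ar1 rose to 2.86 ± 0.55 (SD, n = 3 each). In replicate 2 of the other transcript table C3 was at 137.2 TPM and Cfp at 128.87 TPM. C1qa stayed the lowest of the detected genes in both tables and on coding transcripts.

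Cfp and C1qb could not be ordered: their difference was -0.31, 0.27 and 0.34 in replicates 1, 2 and 3, a mean of 0.10 ± 0.36 (SD, n = 3; exact sign-flip p = 0.75). C1qc and Cfb could not be ordered either, with differences of -0.15, 0.44 and 0.55 and a mean of 0.28 ± 0.38 (SD, n = 3; exact sign-flip p = 0.5, adjusted 0.545). The mean of C1qc minus Cfb turned to -0.52 ± 0.53 in the other transcript table (SD, n = 3). On transcripts annotated as protein-coding alone, both differences turned, to -0.28 ± 0.41 for Cfp minus C1qb and to -0.67 ± 0.45 for C1qc minus Cfb (SD, n = 3 each).

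**Figure D2:**
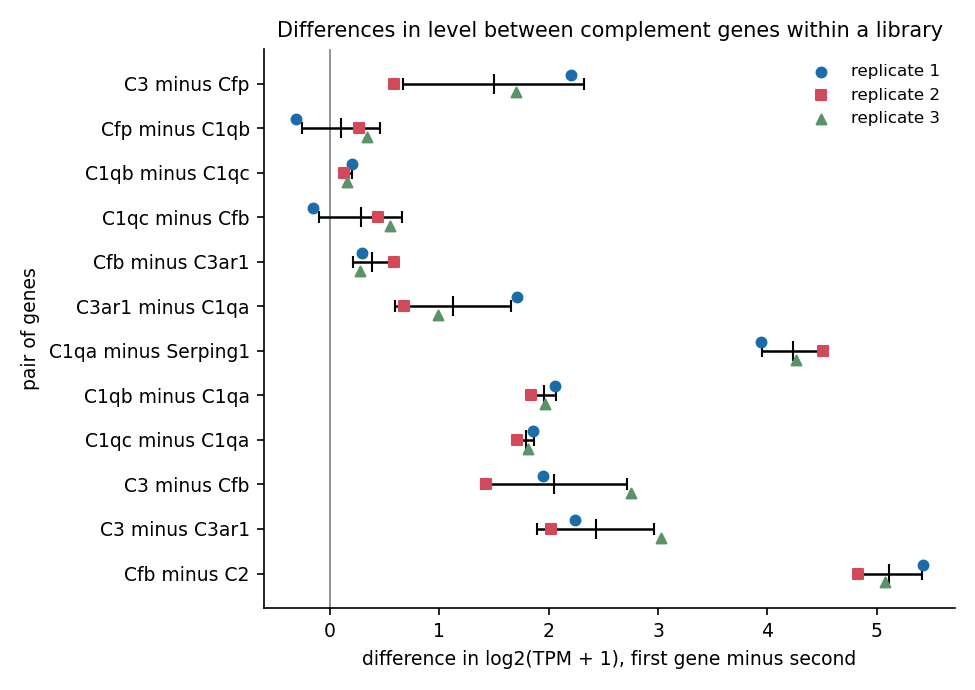
Differences in log2(TPM + 1) between 12 pairs of genes, first gene minus second; coloured points are the 3 libraries, and the black bar is the mean with its SD. In all, 10 pairs lie right of 0 in every library, while Cfp minus C1qb and C1qc minus Cfb have replicate 1 on the other side of 0. The size of C1qa minus Serping1 is set by the pseudocount of 1 TPM.

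Part of the TPM of C1qc, C3 and Cfp lay on annotated transcripts with no coding sequence. C1qc has a coding transcript, C1qc-201, and a processed transcript, C1qc-202, of 946 bases. C1qc-202 runs past the end of an exon, and 728 of its bases lie in an intron of C1qc-201, at chr4:136891651-136892378. C1qc-202 had 32.77, 35.87 and 31.65 TPM, against 28.56, 37.49 and 34.56 TPM for C1qc-201. It thus held 50.04 ± 2.99% of the TPM of C1qc, and 44.7 ± 1.45% in the other transcript table (SD, n = 3 each). The tables do not separate reads of C1qc-202 from reads of unspliced C1qc RNA.

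The sequences where the C1qc transcripts part are shown because they tell which letters assign a read to the intron-holding form. Both are read 5′ to 3′ on the minus strand, from the annotation's transcript sequences on mm10. The lower-case bases are the last 60 of the shared exon, chr4:136892379-136892438. Capitals mark the intron bases in C1qc-202, chr4:136892319-136892378, and the first bases of the next exon in C1qc-201, chr4:136890540-136890599.
C1qc, exon end and intron: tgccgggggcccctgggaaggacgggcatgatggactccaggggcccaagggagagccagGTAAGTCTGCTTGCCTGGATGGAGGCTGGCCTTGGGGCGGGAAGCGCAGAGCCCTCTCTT
C1qc, exon end and next exon: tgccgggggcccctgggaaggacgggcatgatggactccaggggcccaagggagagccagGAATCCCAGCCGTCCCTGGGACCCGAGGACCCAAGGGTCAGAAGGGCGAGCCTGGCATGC
All 120 bases shown of C1qc-201 are coding.

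Cfp also has a processed transcript that runs past the end of an exon, at a lower share. Whereas C1qc-202 ends inside the intron, Cfp-202 leaves it after 100 bases and goes on in exon sequence of Cfp-201. The processed transcript Cfp-202, of 401 bases, has 100 bases in an intron of the coding transcript Cfp-201 and shares the other 301. Cfp-202 had 15.38, 20.02 and 21.99 TPM, against 41.58, 77.37 and 72.03 TPM for Cfp-201. Only 33.02, 59.1 and 52.86 expected counts lay behind the values of Cfp-202, since a short transcript turns few counts into a high TPM. Its share of Cfp was 23.6 ± 3.23%, and 39.5 ± 6.06% in the other transcript table (SD, n = 3 each). With 301 of its 401 bases shared, how reads were divided between the transcripts is uncertain. As for C1qc, reads of Cfp-202 are not separated from reads of unspliced Cfp RNA. The windows below are laid out in the same way, with shared exon bases chrX:20927281-20927340, intron bases chrX:20927221-20927280 for Cfp-202 and next-exon bases chrX:20925700-20925759 for Cfp-201.
Cfp, exon end and intron: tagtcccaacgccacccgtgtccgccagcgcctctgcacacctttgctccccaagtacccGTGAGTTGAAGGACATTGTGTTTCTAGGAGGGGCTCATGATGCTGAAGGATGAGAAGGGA
Cfp, exon end and next exon: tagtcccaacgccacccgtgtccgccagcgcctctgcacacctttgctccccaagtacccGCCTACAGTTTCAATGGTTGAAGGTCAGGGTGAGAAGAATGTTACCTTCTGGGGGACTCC
All 120 bases shown of Cfp-201 are coding.

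C3 differed from these in that its processed transcript, ENSMUST00000176457.1, held almost no intron sequence. Of its 662 bases, 655 lie in exons of the main coding transcript, ENSMUST00000024988.14, and 7 in an intron. The processed transcript had 52.94, 36.93 and 95.51 TPM, against 212.8, 109.61 and 213.34 TPM for the coding one. Its share was 25.3 ± 5.50% of C3, and 25.9 ± 3.56% in the other transcript table (SD, n = 3 each). Only 262.58, 290.63 and 592.57 expected counts lay behind it, against 11392, 10490 and 15682 for the coding transcript. As nearly all its bases are shared, how reads were divided between the transcripts is uncertain. The coding transcript was about equal in replicates 1 and 3, and the processed one was highest in replicate 3. Replicate 2 was lowest for both C3 transcripts.

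Cfb has 8 annotated transcripts, of which Cfb-202 held 42.5 ± 3.06%, Cfb-206 36.6 ± 7.95% and Cfb-205 11.8 ± 2.57% of its TPM (SD, n = 3 each). Its transcript annotated for nonsense-mediated decay, Cfb-203, held 2.18 ± 1.18%, and 15.6 ± 5.83% in the other transcript table (SD, n = 3 each). Cfb-208 was listed at 0 in the table from alignments and held 11.5 ± 1.19% in the other transcript table (SD, n = 3). C1qa, C1qb and C3ar1 have no transcript other than their coding one. Among protein-coding genes at 1 TPM or more in each library of the gene table, 7602 have a transcript of another kind. Their median share on transcripts not annotated as protein-coding was 53.9 ± 2.96%, and 61.4 ± 1.71% in the other transcript table (SD, n = 3 each). C3, Cfp, Cfb and C1qc lay below that median in both tables, C1qc the least far.

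**Figure D3:**
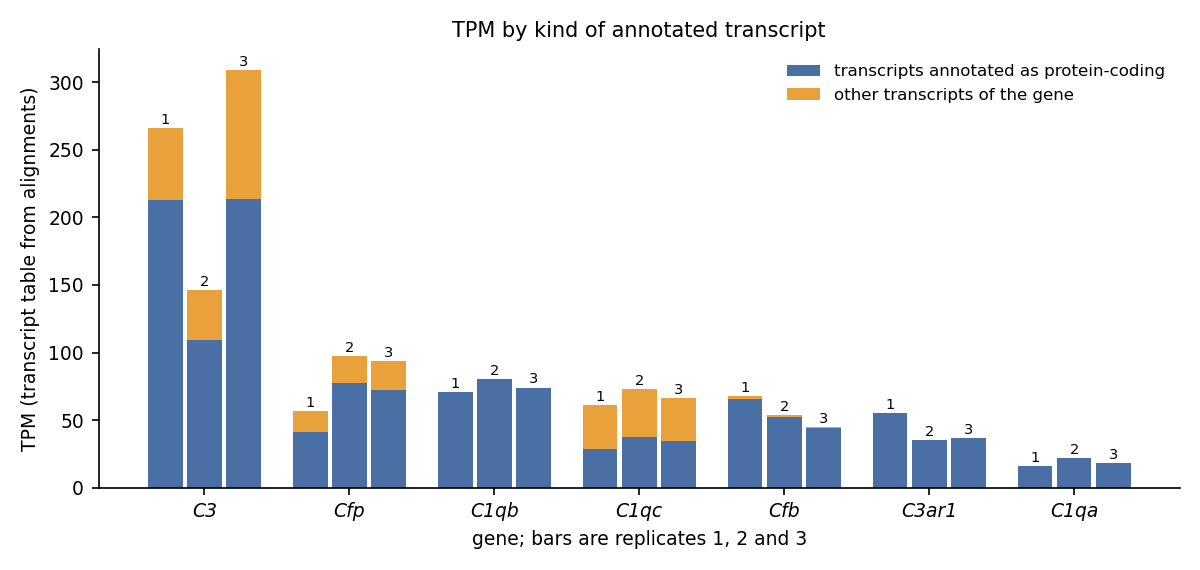
TPM of the 7 detected genes in replicates 1, 2 and 3, split into transcripts annotated as protein-coding and other transcripts of the gene, from the transcript table made from alignments. About equal parts of C1qc are of each kind, C3 and Cfp have a smaller noncoding part, and C1qb, C3ar1 and C1qa have none.

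Of the 7 detected genes, the C1q chains varied least between libraries and C3 most on the TPM scale as deposited. Rescaling to protein-coding genes changed both, and TMM or DESeq2 scaling changed the place of C3 only. As the SD of log2(TPM + 1) over the 3 libraries, C1qb had 0.093, C1qc 0.13 and C1qa 0.20, whereas Cfb had 0.30, C3ar1 0.35, Cfp 0.43 and C3 0.57. The median over 9688 protein-coding genes averaging 1 TPM or more was 0.26. Of those genes, 9.87% had a smaller SD than C1qb and 91.3% a smaller SD than C3. The order depended on 1 library each for C3 and Cfp: C3 had 0.15 without replicate 2, and Cfp had 0.036 without replicate 1. It also depended on the scale. Protein-coding genes made up 34.2%, 27.4% and 29.4% of the TPM in replicates 1, 2 and 3, and after rescaling to them C1qb had 0.25, C1qc 0.29 and C1qa 0.36, while C3ar1 had 0.20, Cfb 0.21, C3 0.49 and Cfp 0.59. The median over protein-coding genes was then 0.31. Cfp also exceeded C3 on log2 CPM with TMM factors, at 0.51 against 0.48, and with DESeq2 size factors, at 0.52 against 0.49. On these scales the C1q chains stayed lowest. C1qa, the highest of them, had 0.247 against 0.267 for Cfb with TMM factors, and 0.247 against 0.254 with DESeq2 size factors.

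**Figure D4:**
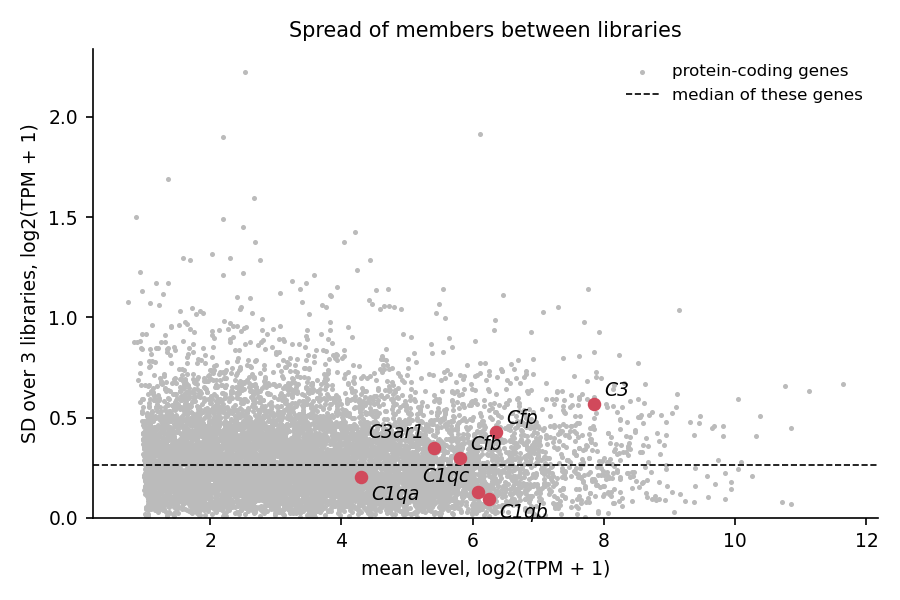
SD of log2(TPM + 1) over the 3 libraries against the mean level, for 9688 protein-coding genes averaging 1 TPM or more (grey) and the 7 detected complement genes (red); the dashed line is the median SD of 0.26. C1qb, C1qc and C1qa lie below the line and Cfb, C3ar1, Cfp and C3 above it, on the TPM scale as deposited.

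Promoter sequence from RefSeq (GRCm38.p6, 250 bases before to 50 after the start) was matched for 5 of the 8 genes: C3, C1qb, C1qc, C3ar1 and Cfp. The promoters of C3, the highest gene, and of C1qb and C1qc, neighbours with similar gene-table levels, are shown 5′ to 3′ on the minus strand, with motif matches in capitals. They lie at chr17:57228087-57228386, chr4:136886151-136886450 and chr4:136892865-136893164. The RefSeq start of C1qc lies 151 bases inside the annotated gene.
C3 promoter: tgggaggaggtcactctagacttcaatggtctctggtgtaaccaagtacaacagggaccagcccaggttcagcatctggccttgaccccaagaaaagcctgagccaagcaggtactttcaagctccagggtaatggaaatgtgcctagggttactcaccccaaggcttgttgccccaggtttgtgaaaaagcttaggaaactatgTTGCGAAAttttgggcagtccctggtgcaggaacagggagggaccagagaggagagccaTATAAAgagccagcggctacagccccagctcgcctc
C1qb promoter: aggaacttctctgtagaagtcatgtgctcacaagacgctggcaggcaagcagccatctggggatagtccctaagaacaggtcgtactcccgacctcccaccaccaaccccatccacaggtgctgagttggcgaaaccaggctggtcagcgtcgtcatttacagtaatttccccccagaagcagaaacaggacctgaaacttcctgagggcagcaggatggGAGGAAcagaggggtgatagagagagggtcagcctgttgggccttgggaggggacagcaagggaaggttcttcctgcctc
C1qc promoter: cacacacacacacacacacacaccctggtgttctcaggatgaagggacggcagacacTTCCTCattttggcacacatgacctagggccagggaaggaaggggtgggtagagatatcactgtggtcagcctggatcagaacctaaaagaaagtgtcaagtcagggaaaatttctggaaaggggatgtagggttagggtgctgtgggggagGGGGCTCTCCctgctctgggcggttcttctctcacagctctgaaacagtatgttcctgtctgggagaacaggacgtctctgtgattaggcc
Both strands were searched for 6 motifs: the NF-kB consensus, GAAANNGAAA (interferon-stimulated response element), TTCNNNGAA (STAT sites), TTGCNNAA (C/EBP), GAGGAA, the core that PU.1 recognises, and TATAAA, the TATA box. Positions count from 1 at the RefSeq start, with -1 just before it. C3 held a C/EBP match from -45 to -38 and a TATA box match from 15 to 20. C1qb held a PU.1 core match from -30 to -25. C1qc held the NF-kB consensus from -41 to -32 and a PU.1 core match on the opposite strand from -193 to -188. C3ar1 held a TATA box match from -235 to -230, and Cfp held PU.1 core matches on the opposite strand from 7 to 12 and from 23 to 28. Among 32851 promoters of the same length, 8.46% held the NF-kB consensus, 10.8% the C/EBP motif, 28.28% the PU.1 core and 13.62% the TATA box, against 1, 1, 3 and 2 of the 5. The interferon and STAT motifs were in none of the 5, and in 3.44% and 8.3% of all promoters. A match is a string of letters, counted at any position in the promoter whether or not the motif would act there, and no binding was measured.

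The 8 genes were set beside a wider list of 49 complement genes, themselves included, grouped by role. Of the 49, 14 were at 1 TPM or more in each library, against 41.1% of protein-coding genes. A further 17 had no count in any library, and 18 had some counts but fell below 1 TPM in at least 1 library. The share of all protein-coding genes without a count was not computed. The 8 component genes held 85.1%, 80.6% and 86.5% of the TPM of the list. By the other transcript table, 23 genes passed 1 TPM, against 52.1% of protein-coding genes. Of the 23, 9 passed only there, and the share of protein-coding genes that did so was not computed. The counts by role below have these same shares beside them. As the list too was chosen with earlier results known, the counts are no test of complement genes as a group.

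C1q was thus far above the proteases it works with. Of the 7 genes of the initiation group, only C1qa, C1qb and C1qc passed 1 TPM, and C1rb, a mouse gene of the C1r protease, had no count in any library. C1ra, chosen for mention after its values were seen, was at 0.40 ± 0.085 TPM (SD, n = 3). None of the 8 lectin pathway genes passed 1 TPM in the gene table, and 6 of them had no count; Masp1 alone passed in the other transcript table. Fcna, a ficolin, was the highest in the gene table at 0.08, 0.17 and 0 TPM. It had only 1, 1 and 0 expected counts, too few to rank the genes of this group.

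C2 and C4 form the C3-cleaving enzyme of the classical and lectin pathways, as Cfb and C3b do in the alternative pathway. C2 lies 85 bases from Cfb on the same strand. C2 was at 0.61, 0.93 and 0.36 TPM, and Cfb exceeded it by 5.11 ± 0.30 on the log2(TPM + 1) scale (SD, n = 3; exact sign-flip p = 0.25, the smallest possible). Cfb was 57.7 to 125 times as high as C2 in TPM of the gene table, and the log2 difference was 2.24 ± 0.28 in the other transcript table (SD, n = 3). The other transcript table gave 17.6 ± 6.37 TPM for C2 (SD, n = 3), 90.5% of it on C2-203, a processed transcript of 850 bases with 421 in introns, which was listed at 0 in the table from alignments. C4a and C4b were at 3.06 ± 0.78 and 1.12 ± 0.37 TPM (SD, n = 3 each); they are near-identical copies, so how their reads were divided is uncertain.

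Of the 4 genes of C3 and the alternative pathway, C3, Cfb and Cfp were above 10 TPM. Cfd, factor D, the protease that cleaves factor B, had no count in any library. Of the 7 terminal pathway genes, whose products build the membrane pore, none passed 1 TPM and 5 had no count in the gene table. By the other transcript table, 2 of the 7 passed 1 TPM, C6 at 1.29 ± 0.36 TPM and C8g at 4.65 ± 0.98 TPM (SD, n = 3 each). In the gene table C8g was the highest at 0.42 ± 0.058 TPM (SD, n = 3), from 3, 5 and 3 expected counts. Hc, which encodes C5, was at 0.02, 0 and 0.01 TPM, from 1, 0 and 1 expected counts.

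Of the 8 receptors, 4 passed 10 TPM in each library in the gene table, C3ar1 among them, against 19.1% of protein-coding genes. After C3ar1 came Itgb2, the shared beta chain of complement receptors 3 and 4, at 27.3 ± 7.09 TPM, and Itgam, the alpha chain of complement receptor 3, at 11.57, 35.55 and 11.27 TPM (SD, n = 3). Itgam was about equal in replicates 1 and 3 and higher in replicate 2. C5ar1, the C5a receptor, chosen for mention after its values were seen, was at 15.4 ± 4.93 TPM (SD, n = 3). Vsig4, a macrophage receptor for C3b, was lowest in the gene table at 0.38, 0.04 and 0.06 TPM, from 5, 1 and 1 expected counts. It was at 3.84, 1.86 and 0.58 TPM in the other transcript table, where 6 of the 8 receptors passed 1 TPM and Itgax, the alpha chain of complement receptor 4, was lowest at 0.62 ± 0.11 TPM (SD, n = 3).

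Of the 12 regulators, 3 passed 1 TPM and 4 had no count in the gene table, against 6 passing in the other transcript table. Cr1l, which encodes a membrane regulator of the C3-cleaving enzymes, was the highest at 28.1 ± 4.36 TPM, and Cd55, decay-accelerating factor, was at 8.08 ± 2.52 TPM (SD, n = 3 each). Cd46, a cofactor for C3b cleavage and chosen for mention after its values were seen, was at 2.44 ± 0.88 TPM (SD, n = 3).

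**Figure D5:**
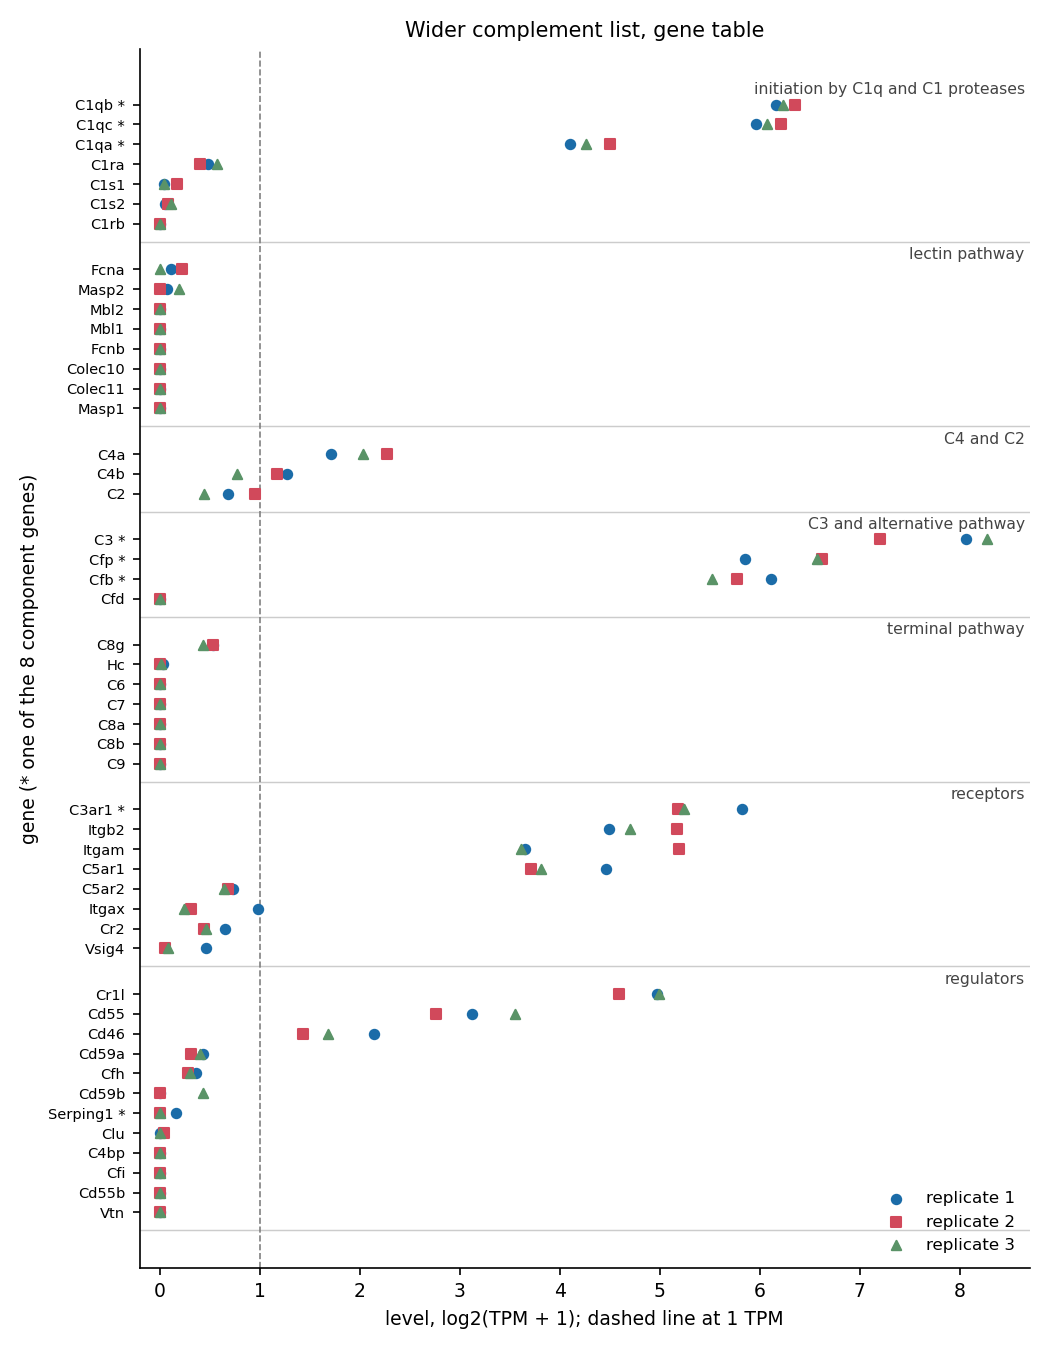
Levels of 49 complement genes in each library as log2(TPM + 1), grouped by role, from the gene table; asterisks mark the 8 component genes and the dashed line is at 1 TPM. The lectin and terminal groups lie left of the line, and genes far right of it are in the initiation, alternative pathway, receptor and regulator groups.

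No annotated gene with counts overlapped the 8 genes. Gm20547, a protein-coding gene at chr17:34856412-34882042 that overlaps Cfb and C2 on the same strand, had no count in any library. The miRNA genes Mir6978 inside C3 and Mir6972 inside Cfb also had none. In the other transcript table Mir6978 was listed at 36.41, 15.1 and 23.7 TPM and Mir6972 at 36.4, 31.5 and 15.6 TPM, and as both lie within their host genes, these values cannot be separated from those of the hosts. The sources used here do not say whether counting used strand.

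The protein-coding genes whose levels were closest to those of C3 over the 3 libraries, by root mean square difference of log2(TPM + 1), were Pid1 at 0.27, Ahnak at 0.28 and Dab2 at 0.30. Pid1 was at 250.95, 145.16 and 223.66 TPM, with replicate 2 lowest as for C3. Closest to C1qb were Kdm2a at 0.069, App at 0.077 and H2afy at 0.080. Kdm2a was at 72.93, 75.63 and 77.81 TPM. These likenesses rest on 3 libraries that share a condition, and they describe levels only.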

How the data were processed

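Per the file headers and the labels, the files that the authors deposited for each library are tables of genes and of transcripts from transcriptome alignments, with expected counts (estimated counts that need not be whole), effective lengths in bases and TPM, and the other transcript table, made from the sequence reads, with TPM and estimated counts. The build was mm10 with the GENCODE M21 annotation; the sources used here name no aligner, quantifier or strand setting. The authors' TPM are scaled over every feature of a library.

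Of the deposited expected counts, 1.338%, 0.292% and 0.416% in replicates 1, 2 and 3 lay on 26345 rows that are no annotated gene, and these rows were left out of library sizes. A count of 0 allows 3 counts, or 0.24, 0.138 and 0.178 CPM. Intervals and floors cover counting error only. Between libraries, chi-square over degrees of freedom was 34.1 to 175.5 over 14321 genes, more than counting noise, so each library was counted as its own sample; separate preparations of 1 RNA sample would also differ by more than counting noise.

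TPM of the gene table gave the levels. With a pseudocount of 1 TPM, log2 differences between genes were taken within a library and tested by two-sided exact permutation of signs (sign-flip test). A difference on this scale understates that of low genes. Expected counts were rounded for edgeR 4.0.16 (TMM factors) and DESeq2 1.42.0 (size factors) in R 4.3.3. The edgeR step was checked on simulated data, and the DESeq2 size factors were not. Other steps used SciPy 1.17.1, statsmodels 0.14.6, pandas 2.3.3, numpy 2.4.6 and, for figures, matplotlib 3.10.9 under Python 3.11.15. The alternatives were the other transcript table, other scalings and pseudocounts, other limits of detection and leaving out each library.

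The 8 genes and the lists were chosen with earlier results of these data known. Named genes were the 8, the 2 highest and the lowest gene of each role group, genes that overlap the 8, and the 3 nearest in level to C3 and to C1qb. Genes with no count in any library were given by number, apart from the lowest of a group. Others are marked in the text. Promoter and transcript sequences came from RefSeq and GENCODE.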

Additional observations from a re-analysis of the deposited data

How the results depend on the processing

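Of 119 alternative values for the 12 pairs, 115 kept the direction, and 10 pairs kept it throughout. Most of these values could not have turned those 10 pairs. A scaling or pseudocount acts alike on both genes of a library. Their sign was the same in every library, so leaving 1 out could not turn it. Only the other transcript table and the sum over protein-coding transcripts could, so the 115 say little about how firm the directions are. Cfp minus C1qb turned to -0.28 on protein-coding transcripts alone, a choice made after seeing the data, and ranged from -0.019 to 0.30 when 1 library was left out. C1qc minus Cfb turned to -0.52 in the other transcript table and to -0.67 on protein-coding transcripts alone. The cause was not tested. Differences without a pseudocount were not computed for pairs with Serping1, which has counts of 0. Of the wider list, 23 genes passed a limit of 0.1 TPM in each library, against 14 in the main count. As many passed 1 TPM in the other transcript table, and 7 of the 8 component genes passed in each. The share of protein-coding genes passing 0.1 TPM was not computed, so the counts at that limit cannot be set against all genes. At 1 TPM, 41.1% of protein-coding genes passed in the gene table and 52.1% in the other transcript table. Levels moved by more than 1 SD in 13 of 48 alternatives, 8 of them the rescaling to protein-coding genes, which raises every TPM. No paired analysis was possible because all libraries belong to 1 condition. With 3 libraries the exact sign-flip test could not pass 0.05, and Serping1 is limited by depth.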

Other observations

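Of the wider complement list, 9 genes passed 1 TPM in each library in the other transcript table and not in the gene table. They were C2, Masp1, C6, C8g, C5ar2, Cr2, C4bp, Cd59a and Cd59b, named here after their values were seen. Of all protein-coding genes, 52.1% passed in the other transcript table and 41.1% in the gene table. The share passing only in the other transcript table was not computed, so the 9 are not read as particular to complement. Masp1, a protease of the lectin pathway, had no count in the gene table and 4.14 ± 1.00 TPM in the other transcript table, and C4bp, a regulator of C4b, had no count and 3.78 ± 1.52 TPM (SD, n = 3 each). All of the C4bp value lay on a retained-intron transcript, C4bp-204, with 3668 of its 3845 bases in introns. Cd59b, an inhibitor of the membrane pore, averaged 0.117 TPM in the gene table, from 0, 0 and 1 expected counts in replicates 1, 2 and 3. It was at 7.66 ± 0.60 TPM in the other transcript table (SD, n = 3). In 2 of the 9 genes, C2 and C4bp, the leading transcript was not annotated as protein-coding.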
